A study of Bos taurus with 8 samples.

Results

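Whole testes of cattle were compared with 7 other tissues by RNA-Seq, 1 library per tissue, to describe which loci were transcribed at a higher or a lower level in testes. The members are the loci of the expression table that carry an Ensembl transcript identifier and lie on the 29 autosomes. These were 23731 of 24886 loci with an identifier and of 36801 loci in all. A locus was compared where at least 1 of the 8 libraries reached 1 FPKM (the number of fragments scaled to transcript length and to the mapped fragments of the library), which left 16804 loci.

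The study related DNA methylation to transcript levels across cattle tissues. The other tissues were frontal cortex, uterus intercaruncular (the uterine lining between the caruncles), mammary/parenchyma, nucleated blood cells, ileum, abomasum (the stomach chamber with glands) and rumen (the large fermenting forestomach). The labels give no treatment or genotype. The study took the tissues of its methylation assay from the Hereford cow behind the reference assembly and her progeny and relatives. In its list of these tissues, testes came from an adult male, uterus and blood cells from an adult female, mammary gland, cortex, abomasum and ileum from a juvenile female, and rumen from a male fetus, and whether the RNA came from the same animals is not given in the sources used here. Tissue, animal, age and sex therefore cannot be told apart, and with 1 library per tissue no difference has a replicate check and no test was made. In whole tissue, fewer cells of a type and less RNA per cell cannot be told apart either. The table does not pair identifiers with gene symbols, so the label was not checked against markers of germ cells, Sertoli cells or Leydig cells, and loci are given by position in the UMD3.1 assembly.

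The testis holds the seminiferous tubules, in which spermatogonia divide, enter meiosis as spermatocytes and mature as haploid spermatids, supported by Sertoli cells, with steroid-producing Leydig cells between the tubules. In spermatids most histones are replaced by transition proteins and then by protamines, which pack the DNA of the sperm head. Across mammals the adult testis is known for transcribing an unusually large part of the genome, with many genes that are silent in somatic tissue.

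Testes stood apart from the other tissues mainly through loci at a higher level. A locus was counted as higher where its log2(FPKM + 1) in testes was above that of all 7 other libraries and at least 1 above their mean, which is 2-fold on the scale of FPKM + 1, and as lower by the mirror rule. By this count 4427 of the 16804 loci were higher in testes (26.3%) and 1404 were lower (8.36%). Each other tissue, set against its own 7 others in the same way, had fewer higher loci: 2269 in frontal cortex (13.5%), 1752 in nucleated blood cells (10.4%), 1510 in rumen (8.99%), 1088 in abomasum (6.47%), 901 in uterus (5.36%), 666 in ileum (3.96%) and 574 in mammary gland (3.42%). For lower loci testes came after nucleated blood cells with 2593 (15.4%) and frontal cortex with 1707 (10.2%), and before rumen (6.26%), abomasum (3.56%), uterus (2.46%), mammary gland (2.3%) and ileum (0.952%). Higher loci also outnumbered lower ones in every other tissue except nucleated blood cells, and ileum had 666 higher and 160 lower loci. Higher loci thus made a larger share of all calls in ileum than in testes. Among testes calls 75.9% were higher, and 66.9% after the libraries were rescaled to the same median over the 8638 loci expressed in all 8, with 3812 higher and 1883 lower loci. The median difference between testes and the mean of the other tissues was 0.15 on the log2 scale, and this rescaling shifted it by -0.21 to -0.06, which turned its direction. Folds on FPKM + 1 understate the difference at low levels.

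**Figure D1:**
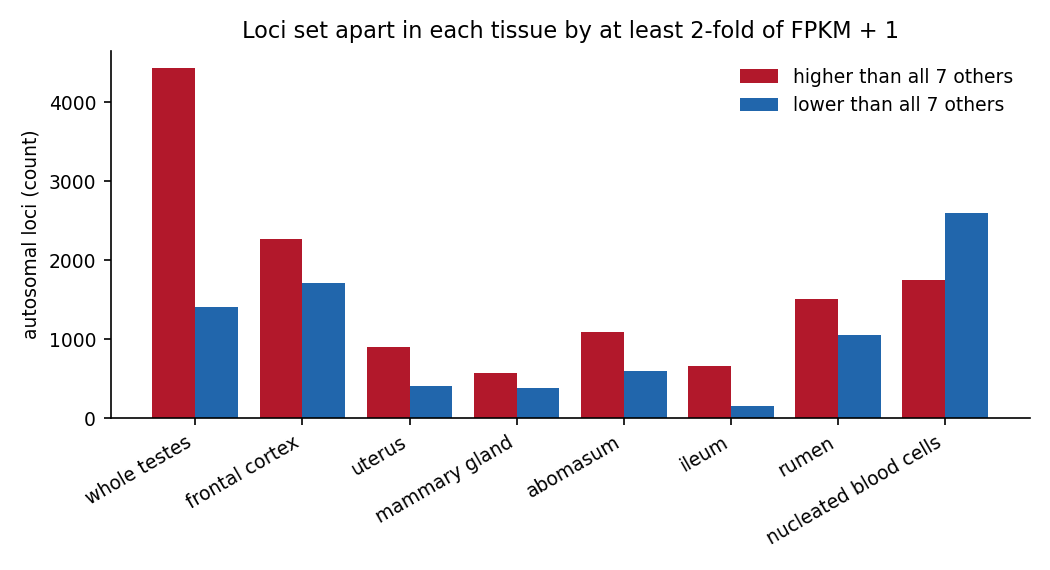
Number of autosomal loci (vertical axis) that were higher (red) or lower (blue) in each tissue than in all 7 others and at least 2-fold from their mean on FPKM + 1, with 1 library per tissue. Whole testes had 4427 higher loci against 574 to 2269 in the other tissues, while nucleated blood cells had the most lower loci (2593).

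Against single tissues, testes was at least 2-fold higher on FPKM + 1 at 5389 loci (32.1%, ileum) to 6649 loci (39.6%, nucleated blood cells), and at least 2-fold lower at 3011 (17.9%, nucleated blood cells) to 3418 (20.3%, ileum). In every pair the higher loci outnumbered the lower ones. Many differences were large: 2737 of the 4427 higher loci (61.8%) were at least 4-fold above the mean of the others, 1077 (24.3%) at least 16-fold and 59 at least 256-fold. Of the 1404 lower loci, 425 (30.3%) were at least 4-fold below that mean and 9 at least 16-fold.

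**Figure D2:**
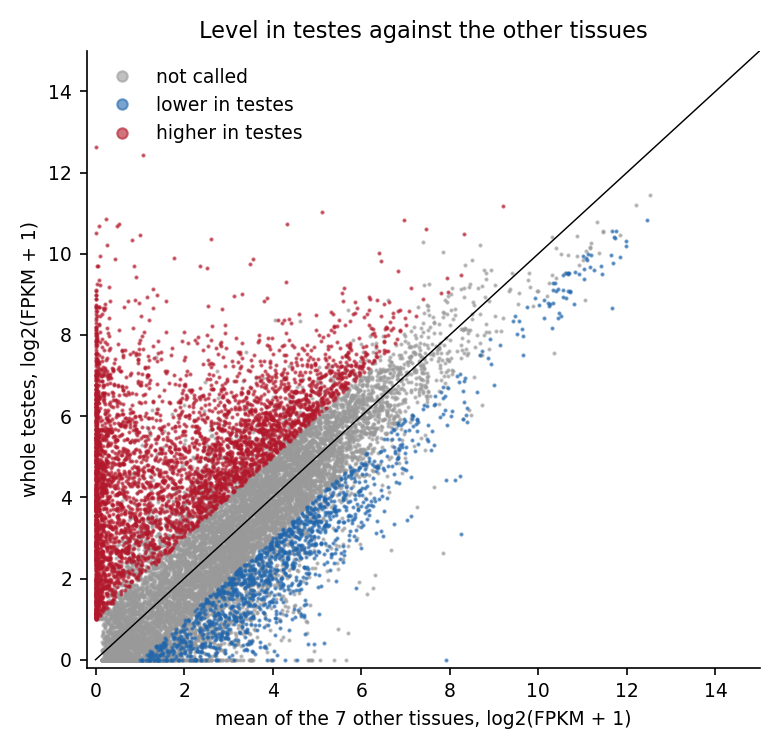
Level in whole testes (vertical axis) against the mean of the 7 other tissues (horizontal axis), both as log2(FPKM + 1), for the 16804 loci compared. Points are loci, red where higher and blue where lower in testes, grey where neither, and the line marks equal levels. Red points reach the left edge, where the other tissues were at or near 0, while the blue points lie closer to the line.

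The depth recovered from the values of short loci, as scaled by the authors' software, was 10286000 reads in testes and 6026000 (mammary gland) to 15522000 (rumen) in the others. For a transcript 1000 bases long, 1 FPKM meant 7.52 reads in testes and 4.41 to 11.4 across the libraries. A count of 0 allows up to 3 reads, or 0.399 FPKM in testes and 0.264 to 0.681 FPKM across the libraries for that length. These limits cover counting error only. A locus listed at 0 may therefore be present below such a level, and 9 of the loci compared had a failed estimate in the table, 2 of them higher and 1 lower in testes.

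Testes expressed more loci than any other tissue, but fewer at the highest levels. At 1 FPKM or more, 13957 loci were expressed in testes against 10816 to 12721 in the other tissues. At 10 FPKM or more the numbers were 8009 against 6432 to 6807, and at 100 FPKM or more 1228 against 610 to 1088. At 1000 FPKM the order turned round, with 44 loci in testes and 66 to 158 in the others. The highest level in testes was 6333 FPKM, below the highest level of each other tissue (7223 to 53850 FPKM). The median level of expressed loci, 13.3 FPKM, lay within the range of the other tissues (11.1 to 14.0). The 4427 higher loci held 48.8% of the FPKM summed over autosomal loci in testes. The higher loci of the other tissues held 10.8% to 74.0% of theirs, the highest share in rumen. Of the 44 loci at 1000 FPKM or more, 18 were higher in testes, 8 were lower, 31 were expressed in all 7 other tissues and 3 in none.

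The locus with the highest level in testes was ENSBTAT00000046692 at chr25:9998858-9999359, which spans 502 bases. It had 6333 FPKM in testes and was listed at 0 in all 7 other libraries. The 3 loci before it were also higher in testes. The locus at chr25:9995790-9996533 had 412 FPKM in testes, 0.504 in rumen and 0 in the 6 others, and that at chr25:9994132-9994413 had 331 FPKM in testes and 0 elsewhere. The first, at chr25:9988822-9990357, had 1292 FPKM in testes, 38.8 in rumen, 0.294 in uterus and 0 in the remaining 5. So this group was at 331 to 6333 FPKM in testes, and rumen was the only other library above 1 FPKM, at 1 locus. In the RefSeq annotation of a later assembly, ARS-UCD2.0, the genes of transition protein TNP2 and protamine PRM1 stand on chromosome 25 with 2 genes, PRM3 and PRM2, listed between them, but no identifier of the table matched that annotation and no name was assigned to the loci.

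Among the loci higher in testes, the locus with the next highest level was ENSBTAT00000027848 at chr7:5252672-5254252, which spans 1581 bases. It had 5495 FPKM in testes. Of the others, ileum was highest with 4.91 FPKM, then nucleated blood cells with 3.01 and mammary gland with 1.23, while rumen (0.556), frontal cortex (0.550), uterus (0.442) and abomasum (0) were under 1. Testes was 11.35 above the mean of the others on log2(FPKM + 1). The locus of bta-mir-202, a microRNA gene known for its expression in gonads, was ENSBTAT00000042434 at chr26:25988240-25988338. It had 545 FPKM in testes and was listed at 0 elsewhere, but it spans 99 bases, shorter than most fragments, and its level is uncertain.

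Of the 10 highest loci among those higher in testes, 3 were expressed in all 7 other tissues and 2 in none. The locus at chr5:62117302-62118834 had 1705 FPKM in testes and at most 3.06 elsewhere (frontal cortex), that at chr13:61561968-61578076 had 1649 against at most 0.433 (uterus), that at chr13:42488775-42493105 had 1865 against at most 2.12 (uterus), and that at chr2:105576568-105577158 had 1632 against at most 2.38 (mammary gland). Further loci of the 10 were shared with other tissues. At chr18:39370666-39381745 testes had 1704 FPKM and rumen 1465, with 4.70 to 11.9 in the other 6, so testes and rumen were both far above the rest. At chr3:33768050-33770824 testes had 2099 FPKM, frontal cortex 358, uterus 104, mammary gland 64.6, ileum 36.6, rumen 25.6, abomasum 24.1 and nucleated blood cells 0. The last pair, both on chromosome 19, were high in every library. The locus at chr19:33853679-33855757 had 2325 FPKM in testes and 473 to 832 in the others, with a median of 546, and that at chr19:54079194-54133687 had 1806 FPKM in testes and 73.0 to 323 in the others, with a median of 113.

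Loci expressed in testes were examined for how many other tissues shared them. Of the 13957 loci at 1 FPKM or more in testes, 1324 (9.49%) were under 1 FPKM in all 7 other libraries, and 8638 (61.9%) were expressed in all 7. The share found in 1 tissue only was 0.633% to 2.78% in the other tissues. Of the 4427 higher loci, 1281 (28.9%) were expressed in no other tissue, 1338 in 1 to 6 and 1808 (40.8%) in all 7, beside 52.2% of all loci compared that were expressed in all 7. The first number is nearly fixed by the limits used, since a locus of no other tissue was compared only where testes reached 1 FPKM, and 1281 of the 1324 such loci (96.8%) were higher. In the other tissues 5.03% to 16.1% of higher loci were expressed in no other tissue and 20.9% to 60.1% in all 7.

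**Figure D3:**
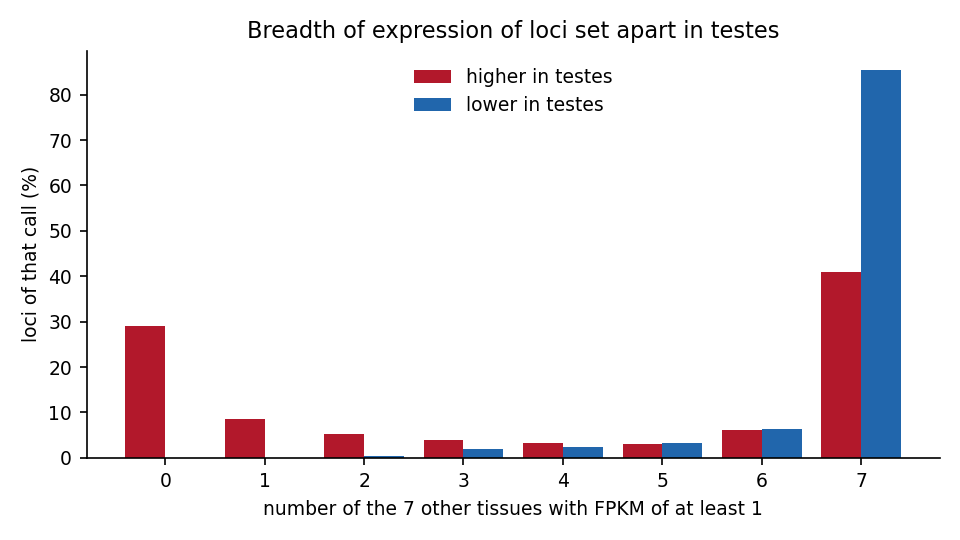
Share of the 4427 higher (red) and 1404 lower (blue) loci of testes, in percent (vertical axis), by the number of the 7 other tissues in which the locus reached 1 FPKM (horizontal axis). The red bars are tallest at 0 tissues (28.9%, nearly fixed by the limits used) and at 7 (40.8%), and lower loci are at 85.4% at 7.

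Both ends differed in level. The 1281 loci with no other expressing tissue had a median of 13.7 FPKM in testes (quartiles 4.37 and 42.9), and 514 of them (40.1%) were listed at 0 in all 7 other libraries. The 1808 loci expressed in all 7 had a median of 49.4 FPKM (quartiles 24.8 and 94.2) and a median difference of 1.77 on log2(FPKM + 1) (quartiles 1.33 and 2.37). Loci shared with 1 to 6 tissues were between them, at a median of 19.9 FPKM. Of the FPKM summed over autosomal loci in testes, the broadly expressed higher loci held 24.4%, those shared with 1 to 6 tissues 13.4% and those of no other tissue 11.0%. Broad loci were not mostly called: of 8776 loci expressed in all 7 other tissues, 8638 were expressed in testes too, 1808 (20.6%) were higher, 1199 (13.7%) lower and 65.7% neither.

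Where a higher locus was not at 0 in all others, the tissue nearest to testes was frontal cortex for 1043 loci (26.7%), uterus for 667 (17.0%) and nucleated blood cells for 624 (15.9%), and ileum for the fewest, 236 (6.03%). Of the 1281 higher loci of no other tissue, this left out only the 514 at 0 in all others. At the rest of the 1281, the nearest tissue was picked from levels under 1 FPKM. The limits for a count of 0 lie there, at 0.264 to 0.681 FPKM across the libraries for 1000 bases. Among loci not higher in testes, frontal cortex had the highest level of the 7 at 22.6%, uterus at 10.9%, nucleated blood cells at 21.9% and ileum at 6.50%. For rumen these shares were 12.98% and 17.6%, for abomasum 13.7% and 13.3%, and for mammary gland 7.67% and 7.12%. The differences between the shares were not tested.

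Of the 1404 loci lower in testes, 1075 (76.6%) still had 1 FPKM or more there. By the rule, which puts all other libraries above testes, such loci are expressed in all 7 other tissues. Of the lower loci 356 had 10 FPKM or more, 287 lay between 0 and 1, and 42 were listed at 0. Their median level in testes was 3.61 FPKM, where the median over these loci of the 7-tissue median was 15.1 FPKM. Of the lower loci, 1199 (85.4%) were expressed in all 7 others, beside 52.2% of all loci compared that were expressed in all 7, and the count itself asks that all 7 lie above testes. The median difference of these 1199 was -1.63 on log2(FPKM + 1) (quartiles -2.12 and -1.25). Among the 1199, the tissue with the highest level was nucleated blood cells at 30.7%, rumen at 23.9% and frontal cortex at 15.01%. Among the 7577 loci expressed in all 7 others and not lower in testes, these shares were 26.0%, 21.3% and 21.0%. The lowest other tissue was most often frontal cortex in both sets, at 31.1% and 29.1%. At 400 lower loci some other tissue reached 100 FPKM.

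The locus farthest below the other tissues was ENSBTAT00000059474 at chr11:104181964-104185616, listed at 0 in testes with 52.7 FPKM in frontal cortex, 472 in ileum and a median of 259 over the 7 others. A second locus with the same position and this identifier among its names had 107 FPKM in testes and 208 to 1586 in the others, with a median of 395. Both were lower in testes, by 2.25 on the log2 scale at the second, and how reads were divided between them is uncertain. At ENSBTAT00000063930, at chr21:71453612-71475799, testes had 7.50 FPKM, frontal cortex 8.29, rumen 11.7, mammary gland 67.1, nucleated blood cells 407, uterus 2606, ileum 4720 and abomasum 5907. Testes was the lowest library here, but frontal cortex and rumen were close to it and the other 5 were far above.

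The span of a locus, from first to last base with introns included, was compared between classes. Overlapping loci share 1 set of coordinates in the table, as 5458 of the loci compared did (32.5%), so their span is that of the group, and 35.8% of higher and 31.8% of lower loci were of this kind. Over all loci compared the median span was 33164 bases for higher loci, 21688 for lower loci and 28453.5 in all. Among the 11346 loci alone at their coordinates, it was 21940 bases for higher loci, 16748 for lower loci and 19831.5 in all. Both ways higher loci were longer and lower loci shorter than the loci compared. With no filter on level, span deciles 5 and 6 of all loci alone at their coordinates met at 10556 bases. Higher and lower loci were both longer than that at the median.

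The span of higher loci by breadth depended on which loci were taken. Over all loci compared, those with no other expressing tissue had a median span of 27270 bases, those shared with 1 to 6 tissues 36777 and those expressed in all 7 others 33970.5. Of those alone at their coordinates, loci with no other expressing tissue had a median span of 13558 bases (quartiles 3448.5 and 37883), those shared with 1 to 6 tissues 23542, and those expressed in all 7 others 26486, against 22398 for loci expressed in all 7 and not called. By deciles of span, higher loci expressed in all 7 others made 3.79% of the shortest decile of these loci (97 to 3024 bases) and up to 14.6% of the seventh. The share of all loci expressed in all 7 others was not taken by decile, so this rise was not set against it. The share of all higher loci was 26.9% in the shortest decile and 21.3% to 28.1% in the others. Loci of no other tissue made 16.6% of the shortest decile and 4.76% to 7.22% of the others, but they were compared only through their level in testes, and this order ended without the filter. With every locus alone at its coordinates kept, whatever its level, they made 0.122% of the shortest decile (26 to 137 bases, of which 1.28% reached 1 FPKM in any library), at most 6.78% of any decile and 4.52% of the longest.

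**Figure D4:**
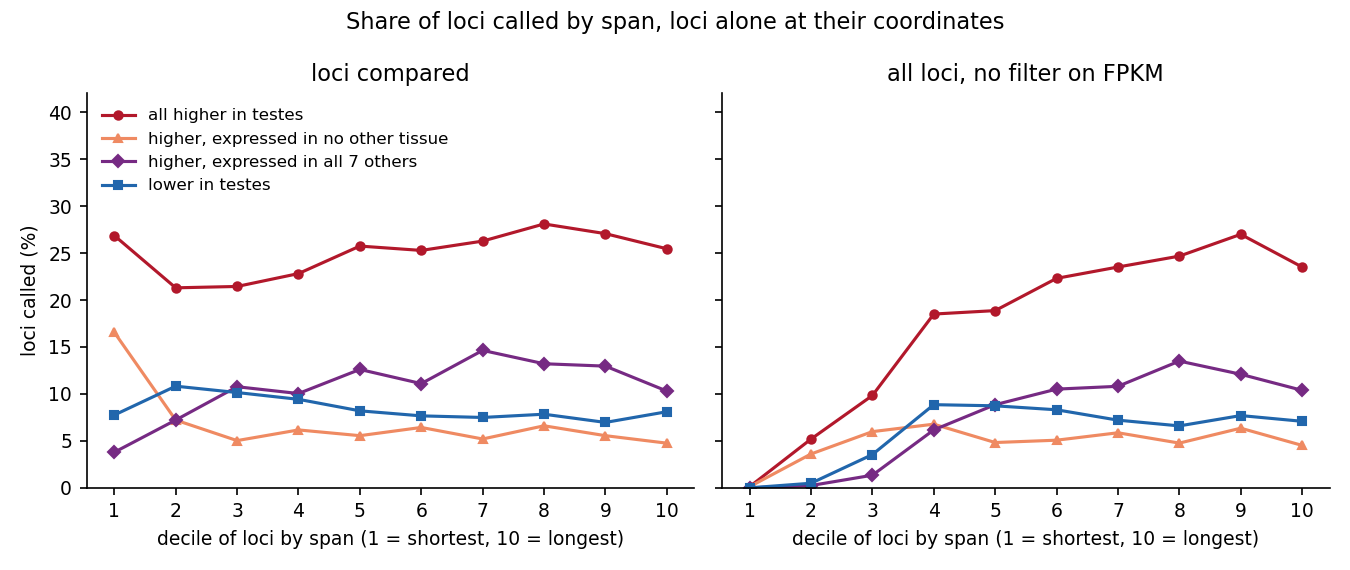
Share of loci called in testes, in percent (vertical axis), by decile of span (horizontal axis, 1 the shortest), for loci alone at their coordinates, with the 11346 loci compared on the left and all loci, with no filter on level, on the right. Circles are all higher loci, triangles higher loci of no other tissue, diamonds higher loci expressed in all 7 others and squares lower loci. The triangles start at 16.6% on the left and at 0.122% on the right, while the diamonds rise from the shortest loci in both panels, to 14.6% on the left and 13.5% on the right. The share of all loci expressed in all 7 others was not taken by decile. On the right, 1.28%, 17.9% and 37.1% of deciles 1, 2 and 3 reached 1 FPKM in any library.

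Higher loci were spread over all autosomes. Their share of the loci compared was 22.7% on chromosome 28 (56 of 247) to 37.9% on chromosome 27 (77 of 203), with a median of 26.3% and chromosome 17 next at 31.9% (173 of 542). Chromosome 27 also had the highest share of higher loci without another expressing tissue, 16.3% (33 of 203), where the lowest chromosome had 4.65%. Loci of no other tissue were compared only through their level in testes, so they stand in both counts of these shares. The shares by chromosome were not recomputed with every locus kept. The share of lower loci ran from 4.76% on chromosome 9 to 12.4% on chromosome 29.

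The next locus on the chromosome was compared with the share of all loci. For higher loci it was also higher in 31.2% (1377 of 4419), beside 26.3% of all loci, a ratio of 1.18. The same ratio in the other tissues was 1.45 to 3.45, but the largest ratio possible falls as the share called rises. Testes had the largest share called, so the ratios of different tissues cannot be compared directly. For lower loci the next locus was also lower in 11.7%, beside 8.36% of all loci, a ratio of 1.40. Among the higher loci with no other expressing tissue, the next locus was of the same class in 18.1% (231 of 1277) beside 7.62% of all, a ratio of 2.37, and among those expressed in all 7 others in 14.4% beside 10.8%, a ratio of 1.34. For the first class the ratio was 2.25 over loci alone at their coordinates, and over pairs that do not overlap the next locus was of the same class in 16.8%. Loci of this class entered the comparison only through their level in testes. With every autosomal locus kept, whatever its level, the ratio was 2.42 for this class (13.1% beside 5.40%) and 1.64 for those expressed in all 7 others (12.5% beside 7.62%).

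Genomic clusters were counted as windows of 1 Mb, laid end to end, with at least 5 loci compared of which at least 5 and at least 50% were higher. Testes had 67 such windows among 1191 with enough loci (5.63%), on 28 chromosomes, and the other tissues had 0 to 9. The number depended on the settings, with 29 windows when no locus was filtered out, 10 at 4-fold, 42 over loci with 1 identifier that stands at no other locus, 36 over loci alone at their coordinates and 15 at 70% of a window. The share of higher loci also differed between tissues, and the counts of windows were not adjusted for it. The clusters held 417 of the higher loci (9.42%), so most higher loci lay outside them. In 18 clusters at least 50% of the higher loci had no other expressing tissue, and in another 18 there was no such locus. No window passed for lower loci, where the highest share in a window was 46.2%, but 1 did with a filter of 5 FPKM and 1 over loci with 1 identifier that stands at no other locus.

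The largest cluster, on chromosome 17 from 71 to 72 Mb, held 15 higher loci of 29, 5 of them with an identifier that stands at several loci. With every locus kept it held 15 of 31 (48.4%) and no longer passed. A cluster of broadly expressed loci lay on chromosome 8 from 76 to 77 Mb, with 10 of 16 higher, 8 of these expressed in all 7 other tissues and none in testes only. Its highest locus, at chr8:76107824-76118597, had 320 FPKM in testes and 72.6 to 127 in the others. A cluster of the other kind lay on chromosome 23 from 22 to 23 Mb, with 6 of 8 loci higher and all 6 without another expressing tissue, the highest at 475 FPKM in testes. These 6 were compared only through testes, and with every locus kept they were 6 of 11 (54.5%). On chromosome 13 from 42 to 43 Mb, 9 of 16 loci were higher, 6 of them without another expressing tissue, and with every locus kept 9 of 18 (50%).

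Runs of consecutive higher loci were also short on the whole: 2123 loci stood alone, 633 runs were pairs, and the longest runs had 8 loci (2 runs). Consecutive here means among the loci compared. Both of the longest runs, at chr8:76540581-77234158 and chr10:87642302-88818475, held 0 loci of no other tissue, with 6 and 5 loci expressed in all 7 others and 4 loci each with shared coordinates. With every locus kept, the longest unbroken stretch was 5 loci in the first and 8 in the second.

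The next runs described held loci at or near 0 elsewhere. On chromosome 13, 7 consecutive loci within 81520 bases (chr13:42462579-42544098) had 73.2, 301, 5.95, 1865, 29.5, 131 and 824 FPKM in testes, in order of position. No other library exceeded 2.12 FPKM at any of them, a value in uterus at the fourth, and the second and the third share their coordinates. On chromosome 27, 6 consecutive loci (chr27:33900690-34625508) had 229, 21.6, 1.43, 66.3, 150 and 5.25 FPKM in testes and at most 0.0885 FPKM elsewhere. Most of these loci were compared only through testes, namely 6 of the 7 and all 6. With every locus kept, each run gained 1 locus under 1 FPKM in all libraries, which shares the coordinates of the last locus, and the stretches of 7 and 6 higher loci stayed unbroken. Testes levels thus differed widely within both runs, while the other 7 libraries were at or near 0 throughout.

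**Figure D5:**
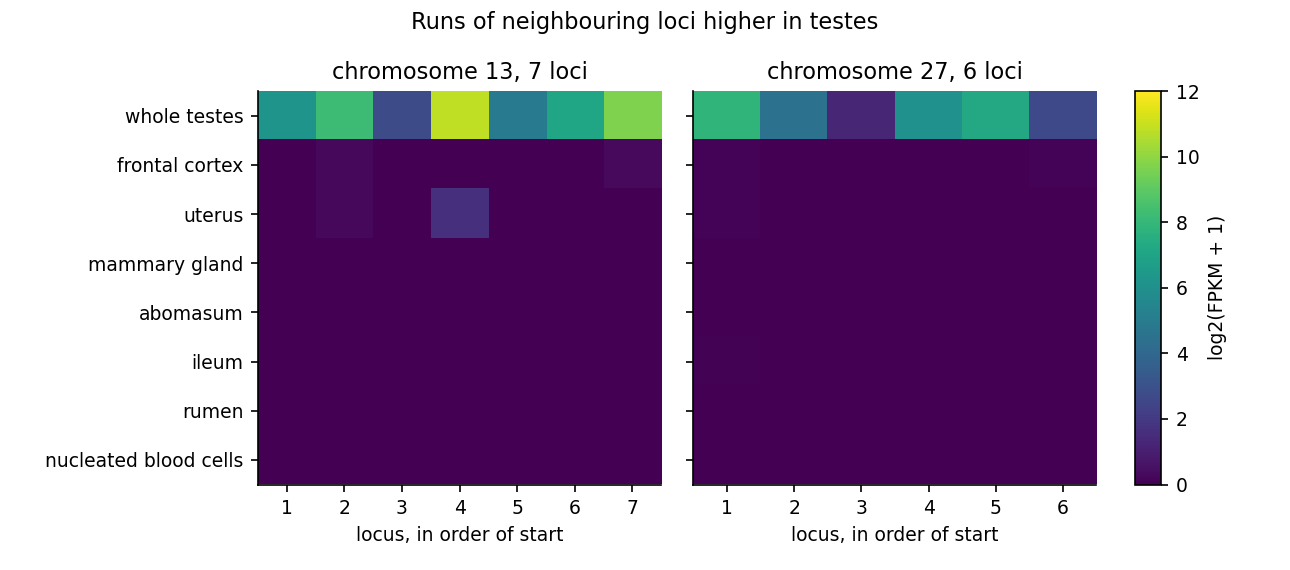
Levels as log2(FPKM + 1) (colour) in the 8 libraries (vertical axis) at consecutive higher loci in order of start (horizontal axis) of the runs on chromosome 13 (7 loci) and chromosome 27 (6 loci). Only the testes line is coloured throughout, with 5.95 to 1865 FPKM on chromosome 13 and 1.43 to 229 on chromosome 27, and the brightest other cell is uterus at 2.12 FPKM.

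A run of another kind lay on chromosome 1 (chr1:6475462-6643906), where 6 higher loci had 5.76 to 145 FPKM in testes and other libraries reached 94.8 FPKM. The longest runs of lower loci had 4 loci (2 runs). In the run at chr12:36187100-36340957, testes had 0 to 5.78 FPKM, 1 of the 4 loci was expressed in all 7 other tissues, rumen reached 1281 FPKM, and 2 of the loci share their coordinates. In the run at chr29:45841605-45905678 testes had 12.6, 2.27, 18.5 and 14.7 FPKM, and all 4 loci were expressed in all 7 other tissues, with up to 224 FPKM.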

How the data were processed

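RNA was measured in 8 bovine tissues, 1 single-end library each. The authors aligned reads to UMD3.1 with TopHat2 2.0.13 and compared tissues with Cufflinks at default settings. The deposited table gives the FPKM of each locus in 28 pairs of libraries, scaled between libraries by the authors' software. Its columns of the authors' comparisons (log2 fold change, test statistic, p-value, q-value, significance) were not used. Groups follow the tissue labels.

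From the FPKM, log2(FPKM + 1) was computed with Python 3.11.15, pandas 2.3.3 and NumPy 2.4.6, as were the calls, spans, neighbours and windows. The scripts were tested on simulated data. Identifiers were printed for the 2 largest and the 2 smallest differences among called loci with 1 identifier and a span of at least 300 bases, and for bta-mir-202, placed by the CG island list of the study. Other loci were given by position: the 10 highest in testes among higher loci and the top locus of clusters described. The runs, the loci of the chromosome 25 group and the clusters described were chosen after their values were seen. Several identifiers stood at 10.9% of compared loci, whose levels are uncertain. None of the 26547 identifiers matched the RefSeq ARS-UCD2.0 gene table, so marker lists are not analysed here. Depth was recovered from unnamed loci of 88 to 130 bases with fragments of mean 200 and SD 80 bases and a lower limit of 87, a model chosen after the data were examined. At the depth taken, 97.7% to 100% of these loci held whole reads, within 0.03. The comparison and lists were chosen with earlier results of these data known. Alternatives covered filters, pseudocounts, folds, scaling, identifiers, windows and libraries left out. Those for failed estimates, non-overlapping pairs, unfiltered neighbours, runs, windows, spans and X-linked loci, and loci alone at their coordinates were chosen after seeing the data.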

Additional observations from a re-analysis of the deposited data

Results flagged for a closer look

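Loci without an identifier were not part of the comparison but held signal in testes. Of 11357 such autosomal loci, 5715 reached 1 FPKM in testes, and 3113 did so in testes and in none of the 7 other libraries, which drew attention as signal outside the loci compared. These 3113 had a median level of 10.3 FPKM and a median span of 823 bases. Among the 1567 of them that span 200 to 1000 bases, 1564 had at least 3 reads when the whole span was taken as the transcript, with a median of 16.0 reads. What these loci are was not tested.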

How the results depend on the processing

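Counts and spans were taken as moved beyond 1.5 times the reported value, and shares, more strictly, outside its 95% Wilson interval. By these limits 24 of 77 recomputed values moved. Some could not move: every called locus reaches 1 FPKM in some library by the rule. With no filter, the counts of higher and lower loci and their median spans therefore stay the same. The counts of 4427 higher and 1404 lower loci became 2737 and 425 at 4-fold, and lower loci became 251 at 2-fold from the nearest library. With loci lacking an identifier 8464 were higher, and over loci alone at their coordinates 2841, with a median span of 21940 bases. Leaving out 1 other library at a time gave 4447 to 4825 higher and 1423 to 1787 lower loci, and a share of loci of no other tissue of 9.76% (without nucleated blood cells) to 11.4% (without frontal cortex). The same share was 7.92% with 0.5 FPKM and 16.0% with 5 FPKM as the limit of expression, 7.68% for loci with 1 identifier at no other locus, 8.67% for loci alone at their coordinates and 22.6% with loci lacking an identifier. Clusters of higher loci numbered 29 with no filter, 10 at 4-fold, 42 with 1 identifier, 36 alone at their coordinates and 15 at 70% of a window. Clusters of lower loci numbered 1 at 5 FPKM in at least 1 library and 1 with 1 identifier. The share of higher loci followed by another was 24.8% with no filter (beside 18.7% of all loci, a ratio of 1.33), 20.2% at 4-fold (16.3%, 1.24), 28.6% with 1 identifier (24.8%, 1.15) and 27.6% alone at their coordinates (25.04%, 1.10). Fewer loci enter under stricter filters and folds, and the cause of other shifts was not tested here. No paired analysis was possible because no tissue has more than 1 library.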

Other observations

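The X chromosome, outside the comparison, held 664 loci with an identifier at 1 FPKM or more in at least 1 library. In testes 190 of these were higher (28.6%) and 109 lower (16.4%), where the autosomal shares were 26.3% and 8.36%. The other tissues had 0.301% to 11.0% lower and 2.56% to 15.2% higher loci on the X chromosome. Of the 190 higher loci, 127 (66.8%) were expressed in no other tissue and 23 (12.1%) in all 7, while on the autosomes these shares were 28.9% and 40.8%. Loci of no other tissue were compared only through testes, and 99.2% of them on the X chromosome and 96.8% on the autosomes were higher. Over every locus with an identifier, whatever its level, 190 of 1130 were higher on the X chromosome and 4427 of 23731 (18.7%) on the autosomes. By this total the share of higher loci on the X chromosome was no longer above the autosomal one. Higher loci of no other tissue made 11.2% of these loci on the X chromosome and 5.40% on the autosomes. Those expressed in all 7 others made 2.04% and 7.62%. In the other tissues 2.38% to 29.4% of higher loci on the X chromosome were expressed in no other tissue. Most of the other tissues are listed by the study as from females, so sex and tissue cannot be told apart here.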
